A study of Mus musculus with 2 samples.

Results

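Shared exonic open sites away from promoters are stretches of DNase I-sensitive chromatin that lay inside the exons of protein-coding genes. They lay more than 1 kb from any annotated start of such a gene and were called in both libraries of mouse calf muscle. A replicate 1 peak was taken when its overlap with a replicate 2 peak reached 50% of the length of 1 or the other. Its edges had to lie more than 1 kb from every transcription start site (TSS) of a protein-coding gene in GENCODE M21, and its midpoint in an exon of such a gene. This rule gave 463 sites among the 19119 shared peaks, beside 12365 promoter, 2175 intronic and 4116 intergenic ones. Of the 463 exonic sites, 133 lay under 2 kb from a coding TSS. Their median gap was 3507 bp, against 10364 bp at intronic and 24630 bp at intergenic sites. The exonic sites fell into 222 in coding sequence, 14 in 5′ UTRs, 168 in 3′ UTRs and 59 in other exonic sequence, meaning exons of non-coding transcripts of coding genes. In all, 347 of the 463 lay in the last exon of a transcript. The sites were chosen by the deposited peak calls and their overlap between libraries, so counts of sites and peak heights are given as descriptions with no test.

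The tissue, gastrocnemius, is a muscle of the calf. It came from B6CASTF1/J females, the F1 hybrid of a C57BL/6 and a CAST strain, at an age of 10 days, with 3 females per sample by the labels. The 2 libraries are biological replicates of a single group with no treatment given, so no condition was compared and no test over samples exists. Peaks are not split by parental allele, and whole muscle holds nerve, vessel and connective tissue beside fibres. The libraries stood apart in size: the peak lists used here hold 114758 peaks in replicate 1 and 26804 in replicate 2, and the steps between the deposited heights, 0.00597 and 0.0107, stand for a depth ratio of 1.80 in favour of replicate 1 provided that heights share a scale. Of 14 skeletal muscle markers, 8 had a promoter peak in replicate 1 and 4 in replicate 2, while Des, Atp2a1, Tnnt3, Myh1 and Myh4 had none in either. The neuronal markers Rbfox3, Snap25 and Syn1 had one in both libraries and the macrophage markers Ptprc, Csf1r and Adgre1 in neither.

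DNase I cuts DNA that is not wrapped in nucleosomes, so its peaks mark DNA where regulatory proteins can bind, and short protected stretches inside a peak, called footprints, mark bases shielded from the enzyme. Most such sites away from promoters are enhancers or insulators in introns and between genes, but the same factors also bind inside exons, where the bases they read may also encode protein or lie in the mature RNA. CTCF is the zinc finger protein that binds insulators and anchors chromatin loops. CpG-rich DNA is mostly unmethylated in mammals, tends to be open and is usual at promoters.

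The sequences below are shown because they carry the motifs the results turn on, each 30 bases long, 5′ to 3′, from mm10 (GRCm38, RefSeq assembly), with the motif in capitals. The first group holds a match to the 12-base core of the CTCF motif, given on the strand of the match. The coding sites are Hey1 (chr3:8664683-8664712), Itpr3 (chr17:27120861-27120890) and Chpf (chr1:75477568-75477597). The 3′ UTR sites are Dand5 (chr8:84815722-84815751), Cavin1 (chr11:100957420-100957449) and Slc43a2 (chr11:75573545-75573574).
Hey1, plus strand: cccaagccgCCACTAGGGGGCgctcgcaag
Itpr3, minus strand: accagacggCCAGCAGGGGGCgtaacatgg
Chpf, plus strand: cgtgttgctCCAGCAGGTGGCgcagcgcca
Dand5, minus strand: cgcttttagCCACTAGGTGGCaccgcgtcc
Cavin1, minus strand: attagggttCCAGCAGGGGGCagcagcgag
Slc43a2, minus strand: gtgagtctgCCAGCAGGGGGCactgtgatc

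The second group shows, on the plus strand, a stretch from each of the 4 coding sites with the best sum of height ranks over both libraries, all CpG-rich, with each CpG in capitals. They are Inpp5b (chr4:124751451-124751480), Spi1 (chr2:91115258-91115287), Fam171a2 (chr11:102438383-102438412) and Vwa1 (chr4:155770356-155770385). The third group shows other motifs in coding sites, capitals marking the E-box CAGCTG at Fam171a2 (chr11:102438402-102438431) and Angptl6 (chr9:20878277-20878306), the AP-1 motif TGANTCA at Rsad1 (chr11:94544055-94544084) and Nkx2-2 (chr2:147177825-147177854), and the TEAD motif GGAATG at Inpp5b (chr4:124751456-124751485) and Npas1 (chr7:16463421-16463450), all on the plus strand.
Inpp5b CpG: aagcaggcatcagtctCGgaatgcaCGgCG
Spi1 CpG: agaagatggCGCGCGCGctgCGcaactaCG
Fam171a2 CpG: ggccCGgttggctgagggaCGgCGgcCGCG
Vwa1 CpG: CGcatggactgCGgagcaCGggtcCGCGCG
Fam171a2 E-box: cggcggccgcgcCAGCTGgtctaccgactg
Angptl6 E-box: caattgcgcgcgCAGCTGgcccaggcgcgt
Rsad1 AP-1: tgttcctccccTGAATCAtgctttcggttg
Nkx2-2 AP-1: gctcccaggccTGAGTCAgtcgcccgacct
Inpp5b TEAD: ggcatcagtctcGGAATGcacggcgaggat
Npas1 TEAD: cggtgatggagaGGAATGcaggagccgcgt

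Open sites were denser in exons than in introns or between genes. Coding sequence more than 1 kb from a coding TSS, 25.6 Mb in all, held 8.66 shared sites per Mb (exact Poisson 95% interval 7.57 to 9.89), and 3′ UTRs, 31.6 Mb, held 5.32 (4.54 to 6.18). Other exonic sequence held 4.92 per Mb (3.74 to 6.34) and the 0.69 Mb of 5′ UTR 20.3 (11.1 to 34.0), the latter resting on 14 sites. Introns held 2.44 per Mb (2.34 to 2.55) and intergenic DNA 2.47 (2.39 to 2.54). Assembly gaps, which are mostly intergenic, were left in the lengths, and densities were not matched for distance to a TSS. These intervals, and the Wilson 95% intervals below, cover counting error only, since sites are not replicates. Each library alone gave the same order of coding sequence above introns, with 118 against 40.2 peaks per Mb in replicate 1 and 17.0 against 3.63 in replicate 2.

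**Figure D1:**
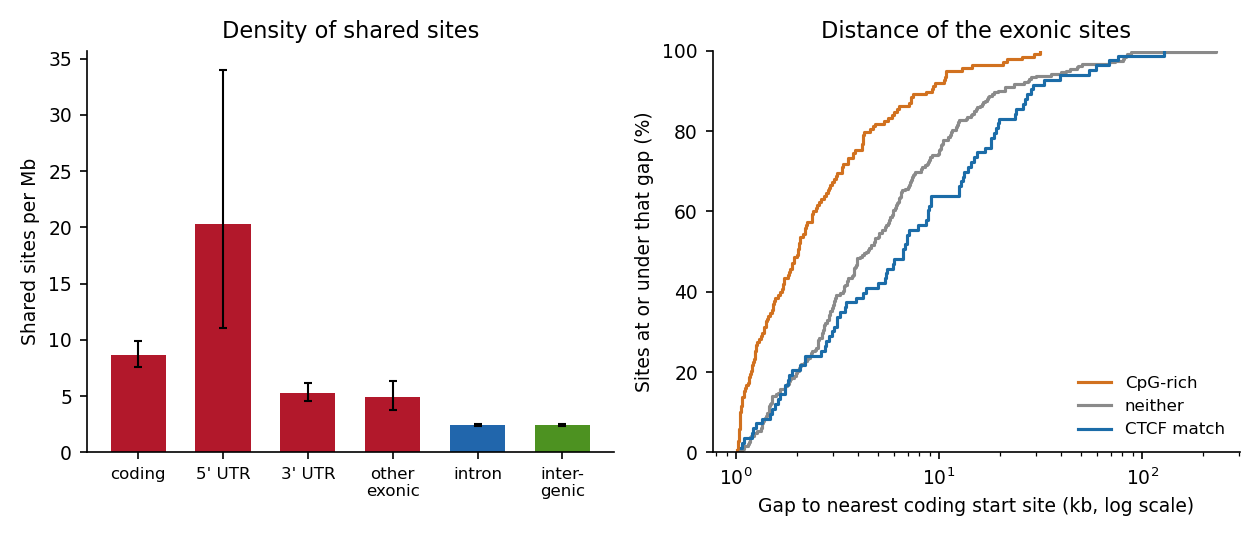
Left, shared sites per Mb of annotated sequence more than 1 kb from a coding TSS, with exact Poisson 95% intervals; coding sequence lies at 8.66 and introns at 2.44 sites per Mb. Right, cumulative share of the exonic sites (%) by the gap to the nearest coding TSS (kb, log scale) in 3 sequence classes; the CpG-rich curve lies to the left, with a median gap of 2020 bp against 6670 bp for sites with a CTCF match.

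Last exons stood out in coding sequence. Over all exons, 74.9% of sites lay in a last exon, close to the 72.3% of exonic bases away from promoters that are in last exons. Among coding sites, however, 129 of 222 (58.1%) were in a last exon, which holds 34.2% of the coding bases, so that last exons had 14.7 and earlier exons 5.51 coding sites per Mb. Other exonic sequence went the other way, with 4.15 sites per Mb in last exons (43 sites) and 9.69 in earlier ones (16 sites). The longest annotated exon over a site's midpoint had a median length of 1820 bp over all sites and 2346 bp for 3′ UTR sites. Lengths of exons without sites were not compared. Of all sites, 50 lay in the exon of a single-exon transcript. The peaks themselves were short, with a median width of 188 bp, and 365 of 463 lay wholly within exonic sequence; this held for 163 of 168 sites in 3′ UTRs and 136 of 222 coding sites.

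Exonic sites had heights near those of other shared sites away from promoters and below those of promoter peaks. The deposited height is a depth-normalized signal. Its median was 2.86 in replicate 1 and 1.46 in replicate 2 at exonic sites, 2.95 and 1.43 at intronic, 3.06 and 1.46 at intergenic, and 5.39 and 1.80 at promoter sites. Heights in replicate 1 ran from 0.0895 to 26.9 and in replicate 2 from 0.225 to 45.9, and 377 of the 463 sites were taller in replicate 1. By part of the exon, the median was lowest in coding sequence and highest in 3′ UTRs in both libraries. In replicate 2 the medians were 1.30 in coding sequence, 1.55 in 5′ UTRs, 1.61 in 3′ UTRs and 1.44 in other exons. In replicate 1 they were 2.47, 2.59, 3.00 and 2.86. Across the 463 sites, which share the 2 libraries and were chosen for being called in both, the Spearman correlation of the heights was 0.56.

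**Figure D2:**
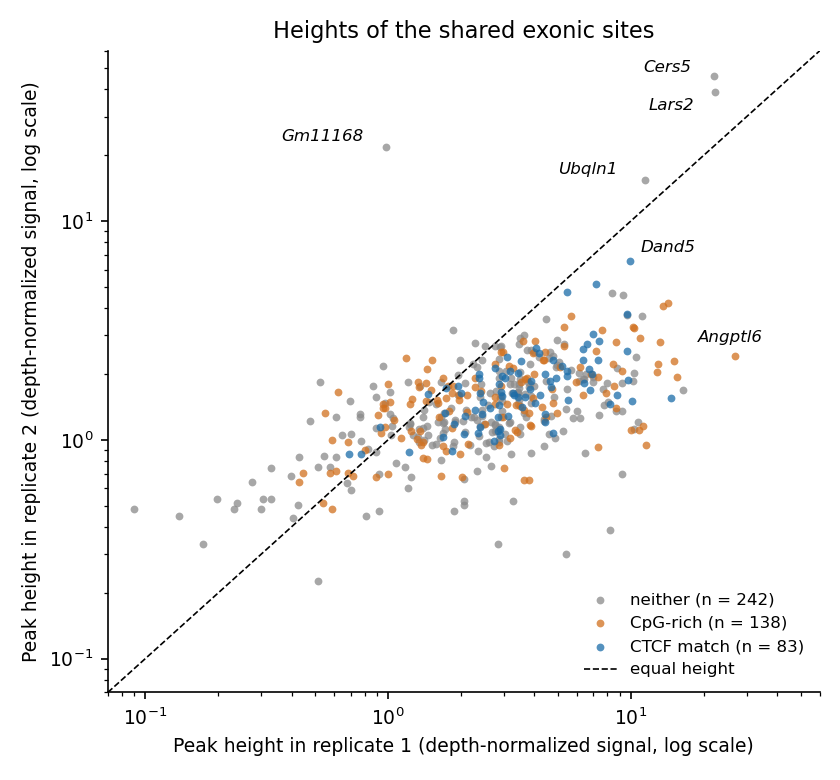
Peak height of the 463 sites in replicate 1 (x axis) and replicate 2 (y axis), both depth-normalized signal on log scales, coloured by sequence class; the dashed line marks equal height. Most points lie below the line, while Cers5, Lars2, Ubqln1 and Gm11168 lie above it with replicate 2 heights of 45.9, 39.0, 15.4 and 21.8.

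The 3 sites with the best sum of height ranks lay in 3′ UTRs. The site in the 3′ UTR of Cers5, a ceramide synthase (chr15:99735641-99736060), had heights of 22.1 in replicate 1 and 45.9 in replicate 2. That of Lars2, the mitochondrial leucyl-tRNA synthetase (chr9:123461921-123462080), had 22.3 and 39.0, and that of Ubqln1, a ubiquitin-binding shuttle protein (chr13:58177641-58177820), 11.5 and 15.4. These sites, unlike most, were taller in replicate 2. A site in coding sequence of the predicted gene Gm11168 (chr9:3006800-3006940) was the most uneven of the 4 sites over 10 times the median in replicate 2, with 0.979 and 21.8. Of the 31-base words in their central 150 bp, 61.7% at Lars2 and 100% at Gm11168 occur elsewhere on the nuclear chromosomes. So do more than 50% at Mid1, Coa5 and Zkscan3, and reads at these sites could come from other copies. No word of the Cers5 or Ubqln1 site occurs elsewhere on these chromosomes, and 438 of the 463 sites had no repeated word. Matches to mitochondrial DNA are not in these shares and are not reported here. The shares therefore do not show whether reads at Cers5, Lars2 or Ubqln1 could come from such copies.

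Next by the sum of height ranks came coding sites of Inpp5b, an inositol polyphosphate 5-phosphatase (chr4:124751381-124751640; 14.3 in replicate 1 and 4.20 in replicate 2), and Spi1, which encodes the myeloid transcription factor PU.1 (chr2:91115161-91115320; 13.5 and 4.11). Spi1 carried this site in its last exon, 2824 bp from the nearest coding TSS, in libraries where 0 of 3 macrophage markers had a promoter peak. Its own promoter had no shared peak, which was also so at Lars2, Inpp5b, Rtn2, Dand5, Fam171a2 and Slc16a5. Rtn2, a reticulon of the endoplasmic reticulum, had a 3′ UTR site of 11.1 and 3.68. Slc16a5, a monocarboxylate transporter, had a 3′ UTR site of 9.30 and 4.60, and Dand5, a secreted antagonist of Nodal, one of 9.96 and 6.59. Over all 463 sites, 273 lay in a gene with a shared promoter peak of its own, a gene with several sites counting for each.

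Among the coding sites Fam171a2 (10.9 and 2.91) and Vwa1, an extracellular matrix protein (10.2 and 3.27), followed. Angptl6, an angiopoietin-like secreted protein, had the tallest coding site in replicate 1, 26.9, with 2.41 in replicate 2, and its peak held 9 footprints in replicate 1 and 4 in replicate 2. The 5′ UTR sites with the best rank sums lay at Rap2b, a small GTPase, in a stretch it shares with B430305J03Rik (13.1 and 2.79), at S1pr3, a sphingosine-1-phosphate receptor (8.33 and 4.70), at A930004D18Rik (8.71 and 2.80) and at Pura, a nucleic acid-binding protein (13.0 and 2.23). All 4 were taller in replicate 1. In other exonic sequence the best rank sums were those of Tspan32, a tetraspanin (9.64 and 3.74), Setd1b, a histone H3 lysine methyltransferase (6.37 and 2.61), Gpr162, an orphan receptor (7.34 and 2.30), and Mpp6, a membrane scaffold protein (9.15 and 1.81). Tspan32, Setd1b and Gpr162 carried a CTCF match.

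By sequence the sites fell into 3 classes, which the rule did not use. A match to the CTCF core, on either strand in the central 150 bp, was found at 83 sites (17.9%, 14.7 to 21.7), against 20.6% of all shared sites away from promoters. CpG-rich DNA without such a match made up 138 (29.8%, 25.8 to 34.1); a site is called CpG-rich where the 500 bp around its centre hold at least 50% G and C and a ratio of observed to expected CpG of at least 0.6. The other 242 sites (52.3%, 47.7 to 56.8) had neither. The classes were spread unevenly over the exon parts: CpG-rich sites made up 45.0% of coding sites (38.6 to 51.6) but 14.3% of 3′ UTR sites (9.79 to 20.4), while CTCF matches were found at 10.8% of coding sites (7.37 to 15.6) and 24.4% of 3′ UTR sites (18.5 to 31.4). In other exonic sequence CTCF reached 18 of 59 (30.5%, 20.3 to 43.1), and in 5′ UTRs 0 of 14 with 9 CpG-rich.

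**Figure D3:**
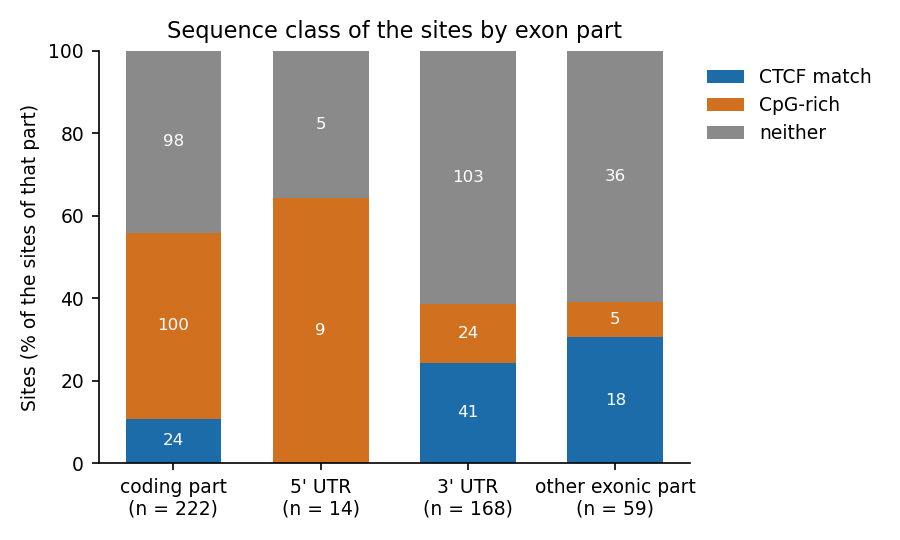
Share of sites (%) with a CTCF match, in CpG-rich DNA without one, or with neither, for each part of the exon; numbers in the bars are counts of sites. CpG-rich sites make up 100 of 222 in coding sequence and 24 of 168 in 3′ UTRs, and CTCF matches 24 and 41.

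Exons rarely held the CTCF core elsewhere. Of windows of the same length at the centres of all 84360 exons away from promoters, 0.14% held a match, as did 1 of 926 windows 1 kb to either side of the sites (0.108%). Shared intronic sites held it at 24.0% (22.2 to 25.8), intergenic sites at 19.0% (17.9 to 20.3) and promoter peaks at 1.67%. The matches sat at the middle of the peaks: 74 of 83 (89.2%) lay within 25 bp of the peak centre, at a median of 9 bp. In 30 of the 82 matches with a host on 1 strand (36.6%) the motif lay on the strand of the gene.

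**Figure D4:**
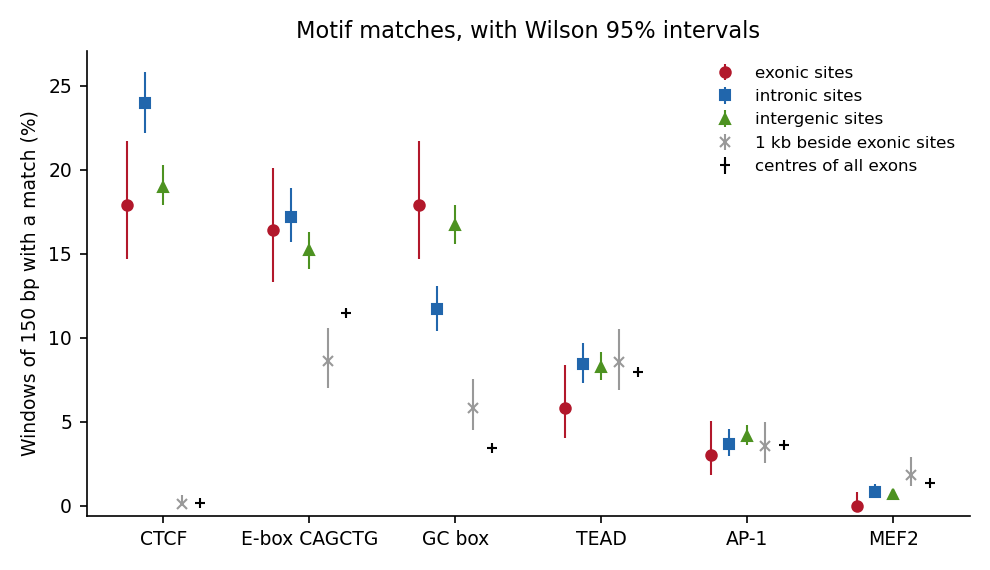
Share of 150 bp windows (%) with a motif match on either strand, with Wilson 95% intervals, at exonic, intronic and intergenic shared sites, in windows 1 kb beside the exonic sites and at the centres of all exons. CTCF stands at 17.9% in exonic sites and 0.14% at exon centres, while AP-1 and TEAD stand at 3.02% and 5.83% in exonic sites and 3.56% and 8.53% beside them.

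Footprints lay over nearly every CTCF match. The deposited footprint lists, which the rule did not use, covered at least 50% of the motif at 83 of 83 matches in exonic sites in replicate 1 and at 77 of 83 in replicate 2. Counted by bases, footprints covered 99.8% and 90.8% of the motif, beside 33.7% and 18.0% of all bases in the central windows of exonic sites. The profile had the same shape at intronic and intergenic matches. With matches turned to 1 orientation, the centre base was under a footprint at 100% of exonic, 98.9% of intronic and 99.2% of intergenic matches in replicate 1, and at 92.8%, 89.8% and 91.2% in replicate 2. Cover was not symmetric, with 56.6% of exonic matches covered 20 bp before the centre and 18.1% covered 20 bp after it in replicate 1. In replicate 2 these were 36.1% and 15.7%.

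**Figure D5:**
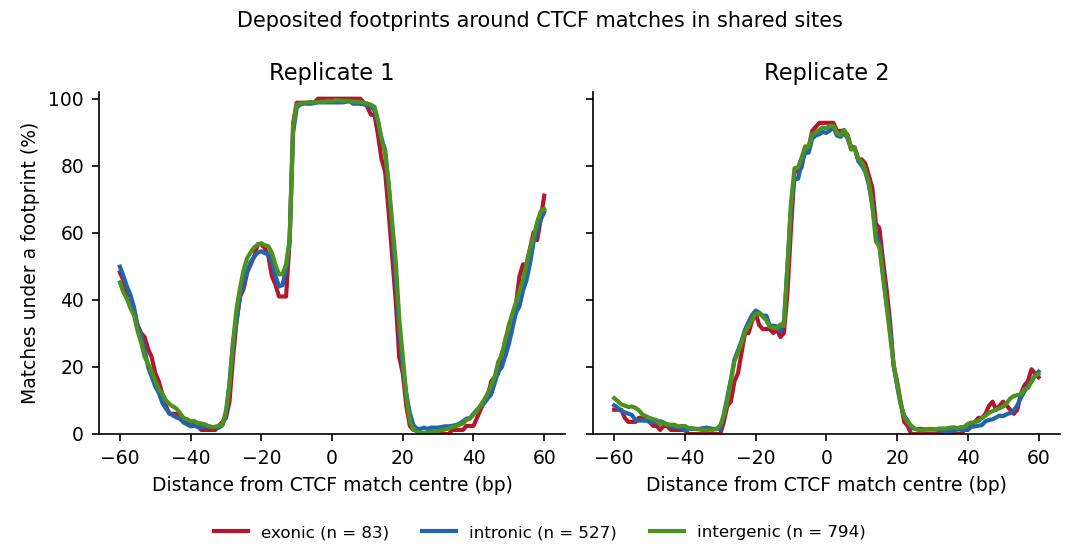
Share of CTCF matches (%) with the base under a deposited footprint, by distance from the match centre (bp, matches turned to the motif's orientation), in replicates 1 and 2. The exonic, intronic and intergenic lines nearly coincide, with a central block at 100%, 98.9% and 99.2% in replicate 1 and a lower shoulder on 1 side.

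Sites with a CTCF match were about as tall in exons as in introns and between genes, and lower than promoter peaks with a match. The exonic medians were 3.44 and 1.64 in replicates 1 and 2, beside 3.42 and 1.53 at intronic and 3.40 and 1.53 at intergenic sites with a match. Promoter peaks with a match had 4.79 and 1.99. Of the 83 exonic sites, 79 were taller in replicate 1. Hey1, a transcriptional repressor downstream of Notch, held its match in coding sequence of the last exon (9.64 in replicate 1 and 2.55 in replicate 2), with all 12 bases of the motif under a footprint in both libraries. The coding match of Itpr3, an inositol trisphosphate receptor of the endoplasmic reticulum (9.76 and 1.88), had 12 and 11 bases covered, and that of Chpf, a chondroitin sulfate polymerizing factor (6.71 and 2.11), 10 and 10. In 3′ UTRs, Dand5, Cavin1, a coat protein of caveolae (7.18 and 5.14), and Slc43a2, an amino acid transporter (6.97 and 3.03), had all 12 bases covered in both libraries. The sites of Chpf, Cavin1 and Slc43a2 were shown as the next best by rank, after the values were seen.

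CpG-rich DNA was far more frequent in the exonic sites than in exons at large. Counting also the 6 sites that hold a CTCF match, 144 of 463 (31.1%, 27.1 to 35.5) were CpG-rich, against 13.9% of all shared sites away from promoters, 7.22% of intronic, 15.4% of intergenic and 81.2% of promoter sites. At the centres of all exons the share was 1.67%, and 2.45% in coding sequence. Among the coding sites it was 106 of 222 (47.7%), and 60.5% of those in a last exon against 30.1% of those in earlier exons. CpG-rich sites without a CTCF match were broader, with a median width of 240 bp against 180 bp in the other classes, and lay closer to a TSS. Their median gap to the nearest coding TSS was 2020 bp, and the nearest shared promoter peak was a median of 5280 bp away, against 28800 bp for CTCF sites and 24630 bp for sites with neither. The shares of CpG-rich DNA above were not matched for distance to a TSS. Among exonic sites more than 2 kb from a TSS, 21.2% were CpG-rich.

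Not all CpG-rich sites hugged the 1 kb limit. Those more than 10 kb from every coding TSS, named after their values were seen, included Srcin1, which inhibits the kinase Src (11.2 in replicate 1 and 1.16 in replicate 2, 31441 bp), Zfp697, a zinc finger protein (10.0 and 1.10, 29283 bp), and Lpar5, a lysophosphatidic acid receptor (9.22 and 2.06, 10624 bp). Median heights of the class were 2.81 in replicate 1 and 1.50 in replicate 2. These were below the 3.20 and 1.71 of intronic and the 4.58 and 1.88 of intergenic sites of the same class. The GC box GGGCGG, read by Sp factors, was found at 52 of 144 CpG-rich sites (36.1%, 28.7 to 44.2), 9.72% of other exonic sites and 53.8% of promoter peaks. Median GC content of the central 150 bp was 67.3% in the class, 56.0% at CTCF sites and 58.0% at the others, and 59.3% over all 463 sites against 49.3% at exon centres.

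Of the motifs that muscle factors read, the E-box had a higher share in the sites than in windows beside them, and MEF2 was not found. The E-box CAGCTG, which MyoD family members read, was found at 48 of 222 coding sites (21.6%, 16.7 to 27.5) and 22 of 168 3′ UTR sites (13.1%, 8.81 to 19.0), where the centres of all coding exons and 3′ UTRs held it at 14.1% and 7.81% and promoter peaks at 8.56%. Over all exonic sites it stood at 16.4% (13.3 to 20.1), in windows 1 kb away at 8.64% (7.0 to 10.6), at intronic sites at 17.2% and at intergenic sites at 15.2%. At least 50% of the E-box lay under a footprint at 38 of 87 matches (43.7%) in replicate 1 and 18 of 87 (20.7%) in replicate 2. Counted by bases, footprints covered 39.1% and 19.2% of the E-box, beside 33.7% and 18.0% of all window bases. The match at Angptl6 had all 6 bases covered in both libraries and that at Fam171a2 had 4 in replicate 1 and 0 in replicate 2. MEF2 matches were found at 0 of 463 exonic sites, 0.828% of intronic sites and 1.84% of windows 1 kb away, and SRF matches at 0.432% of exonic sites. The absence of a match says only that these letters are not in the window.

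The TEAD motif GGAATG stood at 5.83% of exonic sites and 8.53% of windows 1 kb away, and the AP-1 motif TGANTCA at 3.02% and 3.56%. Among 14 AP-1 matches, 1 was at least 50% under a footprint in replicate 1 and 0 in replicate 2, and neither Rsad1 (10.5 and 2.39) nor Nkx2-2, a homeodomain factor (2.88 and 2.66), had a covered base. The TEAD match at Inpp5b had 6 of its 6 bases covered in replicate 1 and 5 in replicate 2. The ETS motif CCGGAAG was found at 18 exonic sites (3.89%, 2.47 to 6.06), with 1.10% at intronic sites and 11.9% at promoter peaks. Motifs were searched on both strands of the same windows, and matches to different motifs were counted also where they overlapped.

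A footprint in both libraries was called at 400 of 463 sites (86.4%, 83.0 to 89.2), against 92.4% of all shared sites away from promoters. Intronic sites had 93.1%, intergenic sites 92.7% and promoter peaks 85.4%. Coding sites stood at 83.8%, 3′ UTR sites at 88.1% and other exonic sites at 91.5%. By class the shares were 98.8% with a CTCF match, 81.9% in CpG-rich DNA and 84.7% with neither. The median number of footprints per site was 3 in replicate 1 and 2 in replicate 2.

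The sites lay in exons of 412 of 21911 protein-coding genes (1.88%). Of these genes 370 had 1 site, 33 had 2 and 9 had 3 or more, and 7 sites lay in exons of 2 genes. Tns1, which encodes tensin, a focal adhesion protein, had 7 sites within its 4444 bp last exon (chr1:73911541-73914680), 6 in the 3′ UTR and 1 in coding sequence. They were low, from 0.0895 to 2.05 in replicate 1 and from 0.450 to 0.536 in replicate 2, 6 of the 7 were taller in replicate 2, and none was CpG-rich or held a CTCF match. Adam11, a catalytically inactive member of its protease family, had 5 sites in the 3′ UTR of its last exon, from 0.513 to 2.82 and from 0.332 to 1.97. Pcdh17, a protocadherin, had 4 CpG-rich sites in a 5091 bp exon, 3 in coding sequence and 1 in the 5′ UTR, from 0.537 to 1.35 and from 0.515 to 1.09.

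Srcin1, Efnb2, Ier5l, Sox11, Bin1 and A930004D18Rik had 3 sites each. Efnb2, an ephrin ligand, had its tallest site at 7.42 in replicate 1 and 1.30 in replicate 2. Sox11, a transcription factor of progenitor cells, had 3 CpG-rich sites of 1.31 to 3.19 and 1.01 to 1.60 in its 8311 bp exon, and Ier5l, a relative of the immediate-early gene Ier5, 3 sites of 1.34 to 2.88 and 1.52 to 1.75. Bin1, a membrane-bending protein of muscle T-tubules, had 3 coding sites in earlier exons, all low and all taller in replicate 2, from 0.173 to 0.424 in replicate 1 and from 0.332 to 0.643 in replicate 2. Neighbouring sites in 1 exon lie close together and are not taken as independent of each other. Whether the DNA between them is open was not tested.

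Of 380 genes in 17 lists, 20 (5.26%) carried a site, against 1.88% of all protein-coding genes. The lists were chosen with earlier results of these data known, so these shares are given as a description only. Among muscle genes there was 1 with a site in the 36 of the sarcomere list (2.78%, near the share over all genes), Tnni1, the slow skeletal troponin I (1.65 in replicate 1 and 1.83 in replicate 2). There were 0 among 20 myogenic regulators, 17 genes of excitation-contraction coupling, 17 of muscle metabolism and 15 of the neuromuscular junction. In lists this short, 0 is also near the 1.88% over all genes. The dystrophin complex and adhesion list had 1 of 19, Col6a3, a collagen VI chain (5.42 and 1.38), and the matrix list 1 of 22, Col12a1, a fibril-associated collagen (3.50 and 1.06). Genes of growth signalling had 2 of 22, the insulin receptor substrates Irs2 (6.18 and 2.15) and Irs1, with 2 sites (2.34 and 0.890, and 0.644 and 1.05).

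The immediate-early list, transcription factors and others that respond quickly to stimuli, had 4 of 22 genes. The 1.88% over all protein-coding genes stands beside this and the lists below as a description only. Jun had 2 sites, in its 3′ UTR (7.89 and 1.63) and coding sequence (2.12 and 1.34), Ier2 had 1 in its 3′ UTR (1.32 and 1.84), and Junb (0.949 and 1.40) and Klf4 (1.25 and 1.09) had 1 each in coding sequence. All 5 sites were CpG-rich, and those of Ier2, Junb and Klf4 lay 1029 to 1050 bp from a TSS, next to the distance limit. Notch and Wnt genes had 3 of 22, which were Hey1, the receptor Notch3 (3.88 and 2.58) and the Wnt receptor Fzd7 (8.70 and 1.40). Chromatin and transcription cofactors had 4 of 34, the methyltransferases Setd1b and Kmt2a (1.68 and 1.07), Tnrc18 (1.24 and 1.46) and the corepressor Bcor (1.34 and 0.976). The neuronal list had 2 of 20, with Rbfox3 (3.06 and 2.06) and a coding site of Shank1, a postsynaptic scaffold, that also lies in an exon of 1700008O03Rik (11.5 and 0.943).

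The circadian list had 1 of 19, the repressor Bhlhe41 (2.91 and 1.76), and the Schwann cell and adipocyte list 1 of 15, Plin1, a lipid droplet protein (0.621 and 1.66). None of 41 Hox and limb position genes, 20 housekeeping genes or 20 endothelial, mural and macrophage genes had a site.

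The rule looked at coding TSS only, and 33 of the 463 sites (7.13%, 5.12 to 9.84) lay within 1 kb of the start of a gene of another type, against 5.75% of intronic and 13.8% of intergenic sites. Of these, 16 were antisense genes, 5 microRNA, 3 lincRNA, 3 processed transcripts, 3 of a type still to be tested, 2 pseudogenes and 1 other RNA. CpG-rich sites held 23 of the 33. The Inpp5b site lay 27 bp from the start of Gm12915, the Tspan32 site 88 bp from the antisense gene Tspan32os, the S1pr3 site on the start of the lincRNA gene Gm32834, and the coding Jun site 614 bp from Junos. Nos3, the endothelial nitric oxide synthase, named after its values were seen, had a coding site on the start of the antisense gene Gm15587, of 10.8 in replicate 1 and 1.10 in replicate 2. The midpoints of 13 sites lay in an exon of such a gene.

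Exonic peaks called in 1 library were many. Replicate 1 had 5303 exonic peaks away from promoters, of which 8.73% were shared, against 7.96% of all its peaks away from promoters, and 78.5% had no interval with a listed false discovery rate in replicate 2. Replicate 2 had 783, of which 61.6% were shared. The share over all replicate 2 peaks away from promoters is not given here, so 61.6% cannot be read as particular to exons. CTCF matches stood at 3.68% of the exonic peaks of replicate 1 without a partner and at 0% of those of replicate 2, and the median height was 1.05 against 2.86 for the shared ones in replicate 1 and 0.654 against 1.40 in replicate 2. E-box matches stood at 20.4% and 16.9% of the peaks without a partner and at 16.4% of the shared sites.

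At the limits of the rule, sites of Cbln4, Fzd8 and Sox12 lay just inside the distance threshold, at 1006, 1018 and 1026 bp, with heights of 0.937 and 1.07, 3.72 and 1.92, and 1.78 and 1.35 in replicates 1 and 2. Peaks of Zbtb10, Ccdc8 and Fam84b lay just outside, at 999, 996 and 980 bp, with 4.42 and 1.50, 1.14 and 1.76, and 0.674 and 0.750. Sites of Adam11, Fam84b and Grik4 overlapped by 50% of a peak, and peaks of Fzd8, Cpt1c and Tbr1 missed at 47.9%, 47.5% and 47.4%.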

How the data were processed

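DNase-seq data of 2 libraries in 1 group were used as deposited on mm10, with the 2 peak lists, the false discovery rate intervals and the footprint list of each library. Aligner, peak caller, footprint caller and settings: not given in the sources used here. Heights in the deposited peak lists are a signal that the authors normalized to depth. The false discovery rate in the deposited intervals is a corrected p-value of at most 0.05. The deposited footprints carry a score of 0.01 each, so they could not be ranked.

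In each library the peak list with fewer rows was used. A site's replicate 2 height is that of the tallest overlapping peak. A midpoint in several kinds of sequence was put in coding sequence first, then 5′ UTR, 3′ UTR and other exons. Genes are those of GENCODE release M21, and sequence is the RefSeq assembly GRCm38. CpG content was read in 500 bp, GC content and 15 motifs in the central 150 bp, and repeats as 31-base words over the nuclear chromosomes. Matches to the mitochondrial genome were counted apart and are not in the shares of repeated words. A footprint counted when it overlapped a peak, and covered a motif when it took at least 50% of its bases. Background windows were centres of all exons with no coding TSS within 1 kb.

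Named are the 10 sites with the best sum of height ranks, the 4 best of each exon part, genes with most sites, list genes with a site, 2 coding sites per motif and the sites next to the thresholds. Members, lists, motifs and this rule were chosen with earlier results of these data known. Shares carry Wilson 95% intervals. With 2 libraries of 1 group no test was run. The work used Python 3.11.15 with scipy 1.17.1, numba 0.67.0, pandas 2.3.3, numpy 2.4.6 and matplotlib 3.10.9, and the overlap, distance and motif code was tested on simulated data, with bedtools 2.31.1 for overlaps.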

Additional observations from a re-analysis of the deposited data

How the results depend on the processing

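No paired analysis was possible because both libraries belong to a single group. In all, 13 results were recomputed under 16 other settings, and 145 of 185 values stayed within the 95% interval of the value in the report or, for numbers of sites or genes, within 1.5 times; the causes of the others were not tested. The longer peak list of each library gave 1017 sites in place of 463, median heights of 1.84 and 1.04, a footprint in both libraries at 73.9%, CTCF matches at 12.3%, CpG-rich DNA at 25.5% and a site at 45 list genes. With an overlap of 50% of both peaks, coding sites were 41.3%, footprints 89.6%, CpG-rich sites 23.7% and median GC content 58.0%. At more than 2 kb from a TSS, footprints stood at 90.0%, GC at 58.0%, sites near the start of a non-coding gene at 4.55%, CpG-rich sites at 21.2% and list genes with a site at 10. With the TSS of genes of any type, sites near a non-coding start were 0% by construction, and with exons of protein-coding transcripts only, coding sites were 55.4%. Any overlap of 1 bp, replicate 2 peaks as sites, merged peaks, 50% of bases in exons, and leaving out the 4 tallest sites moved none of these results, nor did the distance from the midpoint to the TSS or leaving out the 5 repeated sites, both chosen after seeing the data, as were the results on CpG-rich sites, last exons and gene lists.

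Each library alone, without the other, gave 783 (without replicate 1) and 5303 sites (without replicate 2), coding shares of 55.4% and 57.0%, last-exon shares of 69.1% and 64.6%, footprints in both libraries at 57.9% and 13.9%, median GC of 58.7% and 58.0%, CTCF matches at 10.6% and 4.92%, sites near a non-coding start at 7.02% and 4.02%, CpG-rich sites at 26.9% and 13.2%, and 33 and 127 list genes. The median height was 1.15 in replicate 2 alone and 1.11 in replicate 1 alone, and a left-out library has no height of its own. The GC box, found at 22.1% of coding sites under the main rule, stood at 15.7% without replicate 1 and 12.2% without replicate 2. In whole peaks in place of 150 bp it stood at 29.7%, and the E-box at 31.1% in place of 21.6%. The smaller list of replicate 2 limits which sites could be shared, and sites in repeated sequence cannot be placed with certainty.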
